A study of Mus musculus with 6 samples.

Results

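The Rab genes were followed in RNA-seq libraries of small intestinal adenomas from mice whose Paneth cells (PCs) had been depleted, and from their controls. Members were all genes whose symbol is Rab followed by a number and at most 1 letter and 1 further digit, which gave 59 of the 48440 genes in the files. The family was chosen because *Rab43* had already stood out between the genotypes in these same libraries, so the values of *Rab43* are given here as a description with no test. The other 58 genes are members by name alone. The 3 ApcMin, PCdel libraries (QC3, QC8 and QC10) came from mice with the ApcMin allele, the *Defa4-Cre* knock-in and 1 *Rosa26* iDTA allele, in which Cre made from the *Defa4* locus switches on the diphtheria toxin A subunit and kills cells of the PC lineage. The 3 ApcMin, WT libraries (QC4, QC5 and QC6) came from littermates with ApcMin and the same iDTA allele, which stays silent without Cre. All mice had been backcrossed into the C57BL/6 background and were older than 42 days, and no untreated mucosa was part of the comparison. The *Defa4-Cre* knock-in, carried by the PCdel mice alone, had been made in embryonic stem cells of another strain. The part of that strain's sequence near *Defa4* in the values of defensin genes was not tested. The labels do not say whether each library came from a separate mouse, so p-values measure the spread between these libraries.

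Rab proteins are small GTPases that mark the membranes of the cell and steer vesicles between them. Each one is switched on by an exchange factor that loads GTP, recruits effectors such as tethers and motors, and is switched off by a GTPase activating protein, after which a GDP dissociation inhibitor lifts it off the membrane by its prenyl tail. In granule-secreting cells, including PCs, members of the *Rab3* and *Rab27* groups, *Rab26* and *Rab37* are known for their part in granule maturation and release.

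The authors deposited, per gene and library, FPKM (fragments per kilobase of transcript, corrected for the size of the library) and the mean read coverage. The aligned sequence behind a library was 5.407, 5.608 and 5.876 gigabases in QC3, QC8 and QC10 and 5.715, 5.642 and 5.68 gigabases in QC4, QC5 and QC6. Read counts are not used here, so no counting interval is given. The libraries were described with marker lists, and 7 of 7 epithelial markers and 7 of 7 Wnt target genes of adenomas had a mean FPKM of at least 1. This level cannot tell adenoma from normal mucosa, which was not part of the comparison. The WT library QC6 stood apart from the other 5 on these lists. Its enterocyte markers summed to 24480 FPKM, against 8917 to 14621 FPKM elsewhere, and its Wnt target genes to 120.0 FPKM, against 180.3 to 238.0 FPKM. Its epithelial markers had the lowest sum of the 6 (4560 FPKM, against 5240 to 6579 FPKM), and limma gave it the lowest array quality weight, 0.237. Some results are therefore also given without it, among them the counts of Rab genes, PC markers and fibroblast markers. The medians by role, the counts of groups apart and the neighbours of *Rab43* are given with all 6 libraries. The 8 PC markers on the list, all above 0 in every library, were not absent from the PCdel libraries. Their summed FPKM was 3859, 6834 and 3961 in QC3, QC8 and QC10 and 5903, 9107 and 12887 in QC4, QC5 and QC6, with *Defa24* the most abundant. The groups overlapped in this sum. *Ang4*, an antimicrobial ribonuclease, was then left out after the values were seen. The other 7 markers summed to 3434, 5661 and 3899 in QC3, QC8 and QC10 against 5750, 8726 and 11778 in QC4, QC5 and QC6. The groups were then apart, though narrowly between QC8 and QC4. Taken singly, *Defa17*, *Defa24*, *Mmp7* and *Itln1* had groups that overlapped as well. The PC markers had an unadjusted limma p under 0.05 in 5 of 8 genes, all lower in PCdel adenomas, beside 0.681% of all genes tested that were lower at this level. In 3 of the 8 every PCdel library was below every WT library, beside 1.54% of all genes tested. These 3 were *Lyz1*, *Defa21* and *Defa22*, which the paper named as low in PCdel adenomas from the same RNA-seq. The counts of PC markers are therefore a description and not an independent check of PC loss. QC6 had the highest summed PC markers of the 6 libraries, and without it 4 of the 8 genes were lower at an unadjusted limma p under 0.05, beside 2.35% of all genes. In a bulk sample, fewer cells of a type and less RNA per cell cannot be told apart.

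*Rab43*, a Golgi-associated member that acts in transport between the ER, the Golgi and endosomes, differed most between the genotypes of the 46 Rab genes that averaged at least 1 FPKM. It lies on chromosome 6, 87788853 to 87812164 on the minus strand (GRCm38), and 7 transcripts of 323 to 4605 bases are annotated for it in GENCODE M21. Immediately upstream lies *Isy1*, a splicing factor gene, and the annotated read-through gene *Gm45140* joins exons of *Isy1* to the last exons of *Rab43*. Because of this overlap, 74.8% of the 31-base stretches of *Rab43* transcripts also occur in *Gm45140*, and the division of reads between these genes is uncertain. The bases below are shown because they are where the longest *Rab43* transcripts and the read-through part company. Each line runs across a splice junction, with the last 30 coding bases of the upstream exon in lower case and the first 30 bases of the exon they share (chr6:87794614-87794797, minus strand, GRCm38) in capitals. The upstream exon is chr6:87811347-87811779 in *Rab43-203*, chr6:87809619-87809754 in *Rab43-201* and chr6:87819557-87819643 in *Gm45140-201*.
Rab43-203: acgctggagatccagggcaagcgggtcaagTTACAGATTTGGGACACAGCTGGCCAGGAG
Rab43-201: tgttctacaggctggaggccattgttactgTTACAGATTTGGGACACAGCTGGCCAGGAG
Gm45140-201: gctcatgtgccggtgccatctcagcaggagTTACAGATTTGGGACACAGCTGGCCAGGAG
Reads within the capitals could come from any of the 3 transcripts. Other annotated transcripts of *Rab43* and *Gm45140* hold these bases too. Reads across the junction tell the 3 lines shown apart, but they do not single out either *Rab43* transcript. Another annotated *Rab43* transcript has the junction of *Rab43-203*, and another has that of *Rab43-201*. The longer *Gm45140* transcript runs on into the capitals from within an exon and lacks this junction. The values deposited are sums over the transcripts of a gene, so no level is given per transcript.

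**Figure D1:**
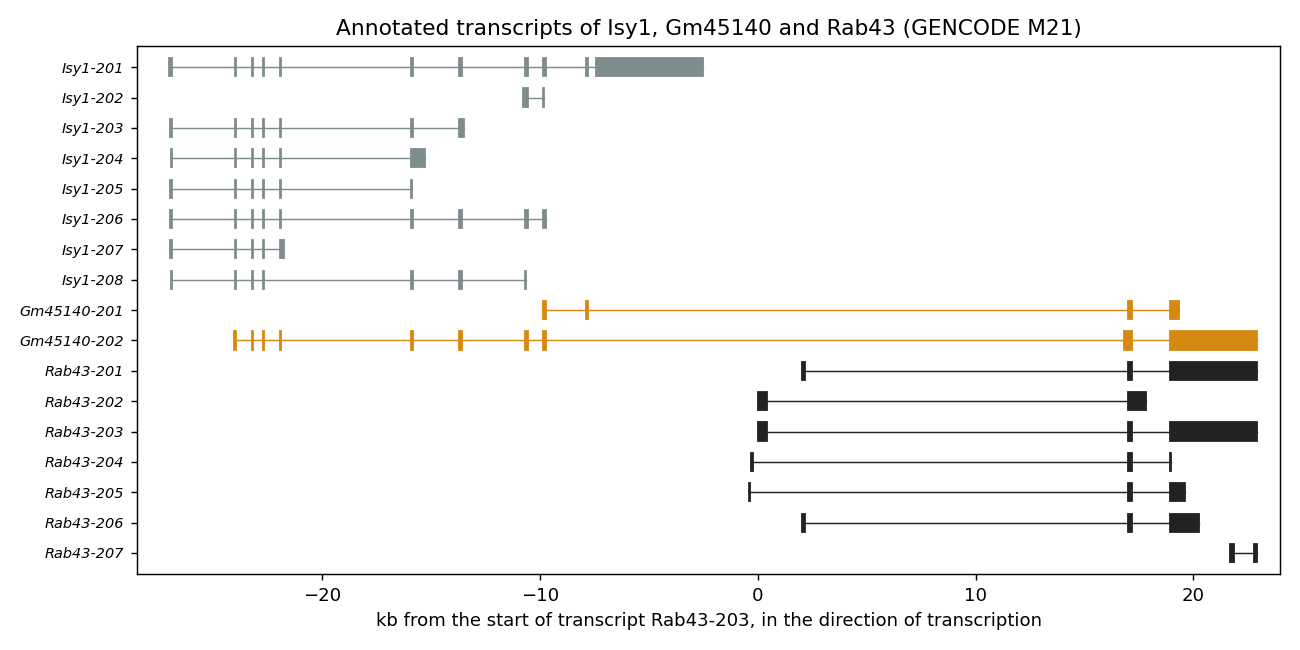
Annotated transcripts of *Isy1*, *Gm45140* and *Rab43* (GENCODE M21), drawn to scale in the direction of transcription, with distance in kb from the start of transcript *Rab43-203* on the horizontal axis. Boxes are exons and lines introns, and the read-through transcripts of *Gm45140* start within *Isy1* and end on the last exons of *Rab43*.

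*Rab43* was at 5.41, 4.35 and 5.74 FPKM in the PCdel libraries QC3, QC8 and QC10. The WT libraries QC4, QC5 and QC6 had 29.4, 27.1 and 36.6 FPKM. Every PCdel library was thus below every WT library, and the highest PCdel value and the lowest WT value still lay 4.73-fold apart. The group means were 5.17 ± 0.727 FPKM (SD, n = 3 libraries) and 31.02 ± 4.93 FPKM (SD, n = 3), which leaves 16.7% of the WT level, a difference of -2.37 in mean log2(FPKM + 1). Ranked by mean FPKM within a genotype, *Rab43* was 13 of the 59 Rab genes in WT adenomas and 39 in PCdel adenomas. The part of PC loss in the *Rab43* values was not tested.

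The deposited coverage gave a second scale, the mean depth of reads over all exon bases of a gene, here divided by the gigabases of the library. On this scale *Rab43* was at 2.01, 1.78 and 2.67 in QC3, QC8 and QC10, against 23.3, 21.4 and 28.0 in QC4, QC5 and QC6. The groups were further apart than in FPKM, with 8.89% of the WT level left and a difference of -3.00 on the log2 scale of this value plus 1. Divided by FPKM, this coverage gives the length of the average transcript behind the FPKM relative to all exon bases of the gene. Genes at the commonest ratio, which include those with a single annotated transcript, set the scale at 1. For these genes coverage per gigabase equals FPKM by construction and adds no second measure. The reading was checked on genes with several annotated transcripts, of which 95.8% to 95.9% in a library had a ratio within the lengths annotated for them, give or take 0.02 in the ratio. For *Rab43* the ratio was 0.370, 0.409 and 0.466 in QC3, QC8 and QC10 and 0.792, 0.790 and 0.766 in QC4, QC5 and QC6. Over the 5526 exon bases this corresponds to a mean transcript length of 2047, 2263 and 2576 bases in the PCdel libraries and of 4376, 4366 and 4231 bases in the WT libraries. The *Rab43* signal in WT adenomas thus had a mean length close to that of its longest transcripts, and the remaining signal in PCdel adenomas was assigned on average to shorter ones. A difference of at least 0.5 on the log2 scale in this ratio, with groups that did not overlap, occurred in 0.148% of the 14163 genes compared. Among the 46 Rab genes it occurred in *Rab43* alone, with -0.91, a count read here as a description since *Rab43* was chosen from this contrast.

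**Figure D2:**
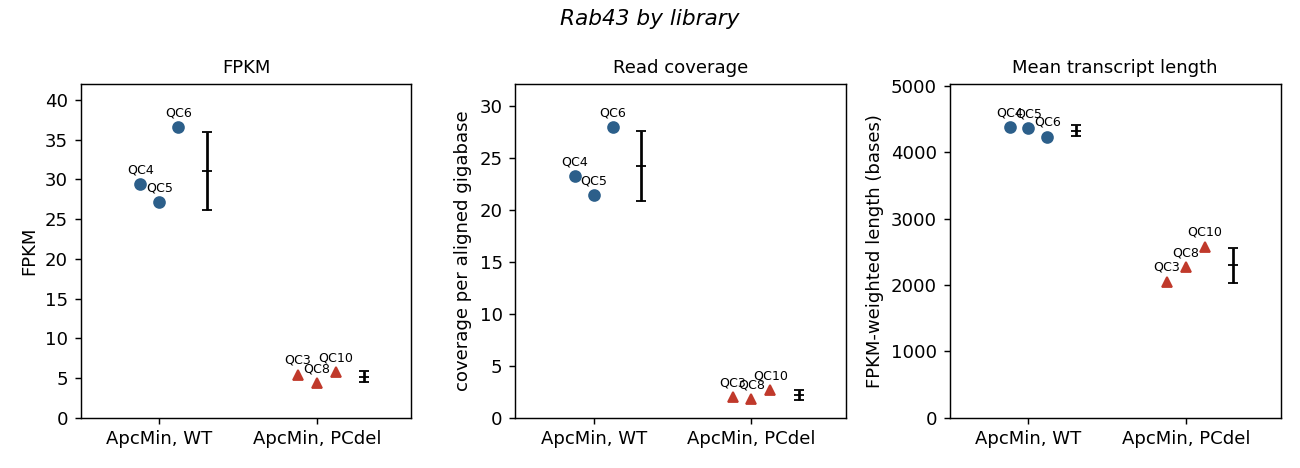
*Rab43* in each library as FPKM (left), read coverage per aligned gigabase (middle) and FPKM-weighted mean transcript length in bases (right). Points are libraries, and bars beside them give the mean and SD (n = 3); on all 3 scales the WT and PCdel libraries stand apart, at 27.1 to 36.6 against 4.35 to 5.74 FPKM.

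In the genes that overlap *Rab43* or lie next to it, the libraries of the genotypes overlapped. *Gm45140* was at 1.45, 1.58 and 0.013 FPKM in QC3, QC8 and QC10, against 0.021, 0.014 and 0.514 FPKM in QC4, QC5 and QC6. It was highest in 2 PCdel libraries and the groups overlapped. The sum of *Rab43* and *Gm45140* was 6.18 ± 0.597 FPKM (SD, n = 3) in PCdel adenomas and 31.2 ± 5.21 FPKM (SD, n = 3) in WT adenomas, 5.05-fold apart. *Isy1* was at 9.90, 13.3 and 6.91 FPKM in QC3, QC8 and QC10, against 12.3, 8.07 and 9.14 FPKM in QC4, QC5 and QC6, with groups that overlapped. Its coverage per gigabase was steadier, between 4.86 and 6.03 in all 6 libraries. Of the 17 other genes tested within 500 kb of *Rab43*, which include *Rab7*, the RNA-binding protein gene *Cnbp* and the coat protein gene *Copg1*, 0 had an unadjusted limma p under 0.05 and in 0 did the groups stand apart, beside 3.38% and 7.54% of all genes tested. Their log2 fold changes ran from -0.93 to 0.5, with a median of 0.0. The members whose coding sequence was nearest to that of *Rab43* were *Rab19* (64.6% of the 630 coding bases of *Rab43* identical), found at the Golgi, and *Rab33a* (62.2%). *Rab19* was at 5.35, 4.36 and 7.52 FPKM in QC3, QC8 and QC10, against 4.50, 5.95 and 6.88 FPKM in QC4, QC5 and QC6. The *Rab19* groups overlapped, and *Rab33a* had means of 0.127 and 0.120 FPKM in PCdel and WT adenomas.

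The family as a whole took between 0.212% and 0.235% of the FPKM of a library. Of the 59 genes, 57 were above 0 in all 6 libraries, 46 had a mean of at least 1 FPKM, 29 of at least 10 and 8 of at least 50. *Rab42* and *Rab9b* were listed at 0 in some libraries, and no member was at 0 in all 6. The median Rab gene had a mean of 9.94 FPKM. The 10 most abundant members held 61.9% of the FPKM of the family. In order of mean FPKM these were *Rab1a*, *Rab25*, *Rab1b*, *Rab11a*, *Rab2a*, *Rab7*, *Rab18*, *Rab10*, *Rab5c* and *Rab14*.

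*Rab1a*, which carries vesicles from the ER to the Golgi, was at 172, 149 and 121 FPKM in QC3, QC8 and QC10, against 165, 164 and 167 FPKM in QC4, QC5 and QC6. *Rab25*, an epithelial member of the recycling endosome, was at 125, 116 and 124 FPKM in QC3, QC8 and QC10, against 141, 138 and 106 FPKM in QC4, QC5 and QC6. Both were high in every library, and in 5 of the 6 libraries *Rab1a* was above *Rab25*, with ranges that overlapped. *Rab25* was above *Rab1b* in all 6 libraries without overlap, and the same held for *Rab2a*, a Golgi protein, over *Rab7*, the Rab of late endosomes and lysosomes, and for *Rab18*, found on the ER and lipid droplets, over *Rab10*, which serves transport to the cell surface. The other neighbours in this order had ranges that overlapped. *Rab11a*, the main recycling endosome Rab, was the least even of the 10, at 56.2, 72.2 and 116 FPKM in QC3, QC8 and QC10 against 100.2, 99.9 and 76.0 FPKM in QC4, QC5 and QC6. None of these 10 genes had an unadjusted limma p under 0.05, and their log2 fold changes ran from -0.23 (*Rab11a*) to 0.21 (*Rab5c*, of early endosomes). Without library QC10, *Rab11a* came to -0.51, with a limma p under 0.05 before adjustment and an adjusted p of 0.993, and on the coverage scale it came to -0.06. Without QC6, *Rab5c* came to 0.35, with a limma p under 0.05 before adjustment and an adjusted p of 0.845. *Rab11a* then came to -0.36, *Rab25* to -0.2 and *Rab7* to 0.07. With array quality weights, *Rab5c* came to 0.26 and was also under a limma p of 0.05 before adjustment.

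**Figure D3:**
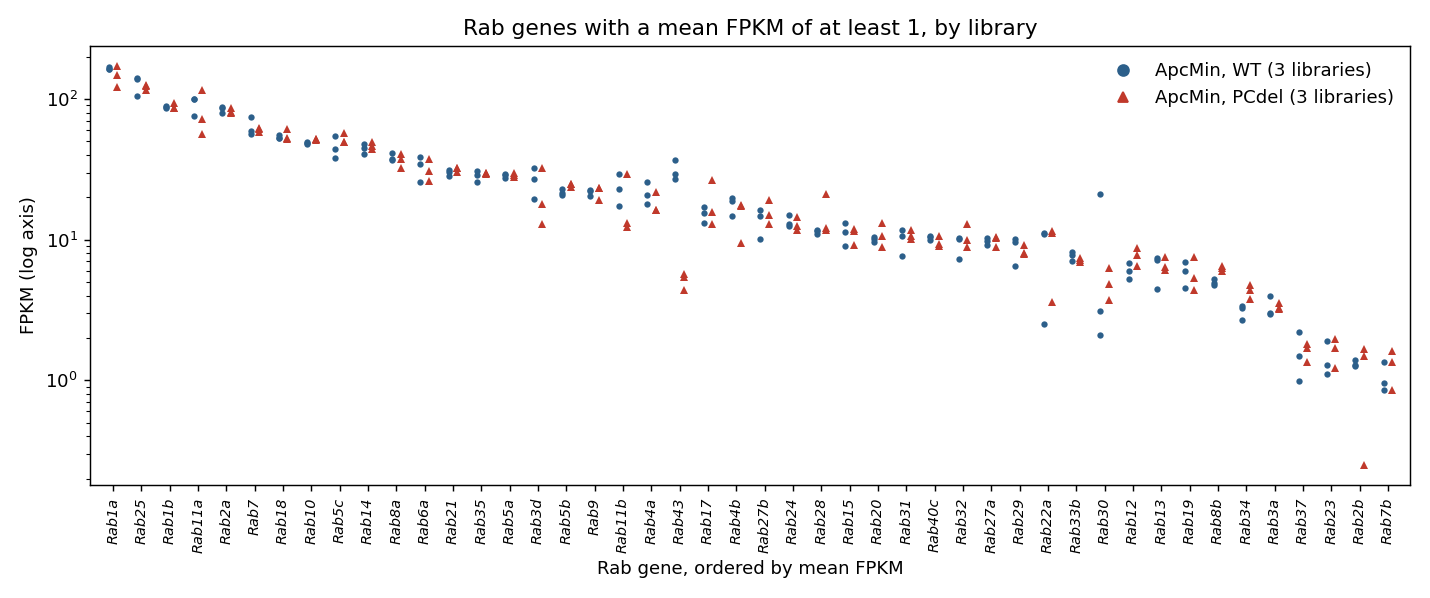
FPKM of the 46 Rab genes that averaged at least 1 FPKM, on a log axis, ordered by mean FPKM. Circles are the 3 ApcMin, WT libraries and triangles the 3 ApcMin, PCdel libraries; *Rab43* shows the genotypes apart by 4.73-fold or more, and *Rab22a*, *Rab30* and *Rab2b* each hold a library far from the others of its genotype.

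The other members differed less between the genotypes than *Rab43*. The comparison across all genes used limma on log2(FPKM + 1) for 14240 genes whose mean was 1 FPKM or more, which included 45 of the other 58 members. Their median log2 fold change was 0.02, beside 0.04 over all genes tested, and their range was -0.42 (*Rab11b*) to 0.37 (*Rab34*). The value of *Rab11b* leaned on QC10, since QC3 and QC8 were below all WT libraries and QC10 was not. Its FPKM was 12.2, 13.0 and 29.1 in QC3, QC8 and QC10, against 17.4, 29.2 and 22.9 in QC4, QC5 and QC6. Among these 45 genes, 0 had a Benjamini-Hochberg adjusted limma p under 0.05, where 0.0140% of all genes tested had one. An unadjusted limma p under 0.05 was found for 2 of the 45 genes, or 4.44%, both higher in PCdel adenomas, beside 3.38% of all genes tested (2.70% higher and 0.681% lower). The groups did not overlap in 5 of the 45, all higher in PCdel adenomas, beside 7.54% of all genes tested (6.00% higher and 1.54% lower). Among the 13 untested members, with means under 1 FPKM, the groups did not overlap in 2, *Rab3b* and *Rab38*, both higher, beside 6.70% of the 12968 genes with means above 0 and under 1 FPKM (4.54% higher and 2.16% lower). Without QC6, 4 of 45 members had an unadjusted limma p under 0.05, all higher (*Rab8b*, *Rab34*, *Rab5c* and *Rab30*), and 0 an adjusted one, beside 5.78% of all genes (3.43% higher and 2.35% lower). *Rab5c* then came to a log2 fold change of 0.35 and *Rab30* to 0.72, the latter from -0.16 with all 6 libraries. Of the 45 genes, 41 had a 95% interval of the log2 fold change within -1 to 1. The 4 with wider intervals were *Rab3d*, *Rab11b*, *Rab22a* and *Rab30*, whose intervals reach past a 2-fold difference in at least 1 direction. The summed FPKM of the 58 genes was 1261 ± 45.04 (SD, n = 3) in PCdel adenomas and 1289 ± 37.3 (SD, n = 3) in WT adenomas, and the groups overlapped.

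The 2 genes with an unadjusted p under 0.05 were *Rab8b* and *Rab34*. *Rab8b* (chromosome 9, 66843672 to 66919705), which directs vesicles to the surface of polarised cells, was at 6.32, 6.52 and 5.94 FPKM in QC3, QC8 and QC10, against 4.91, 5.26 and 4.75 FPKM in QC4, QC5 and QC6. This was a log2 fold change of 0.28, with a standard error of 0.09 and an adjusted p = 1.0 from limma. *Rab34* (chromosome 11, 78188430 to 78192193), which acts in the formation of the primary cilium, was at 4.37, 3.78 and 4.79 FPKM in QC3, QC8 and QC10, against 2.70, 3.39 and 3.27 FPKM in QC4, QC5 and QC6, a log2 fold change of 0.37 (standard error 0.12, adjusted p = 1.0 from limma). All 3 PCdel libraries were above all 3 WT libraries in both genes, and a two-sided exact permutation of the libraries gave p = 0.1, as small as 3 against 3 can give. *Rab8b* was no longer under an unadjusted limma p of 0.05 without QC3, QC8 or QC4, and *Rab34* without QC3, QC10 or QC4 and after quantile normalization or median centring. On the coverage scale *Rab34* came to a log2 fold change of 0.11 and was no longer under 0.05, with 1.58, 1.39 and 1.44 in QC3, QC8 and QC10 against 1.11, 1.23 and 1.55 in QC4, QC5 and QC6, and the groups overlapped there. Fibroblast markers, a cell type that carries primary cilia, had a summed FPKM of 278, 262 and 177 in QC3, QC8 and QC10 and of 181, 198 and 132 in QC4, QC5 and QC6, led by *Dcn*, with 2 of 4 genes higher at an unadjusted limma p under 0.05, beside 2.70% of all genes tested, and 0 of 4 at 0. Without QC6, 1 of the 4 was higher at this level, beside 3.43% of all genes. Their part in the *Rab34* values was not tested.

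The other 3 genes whose groups did not overlap were *Rab5b* (early endosomes), *Rab10* and *Rab28* (cilium). *Rab10* was the tightest of these, at 50.7, 52.1 and 52.0 FPKM in QC3, QC8 and QC10, against 48.8, 49.3 and 48.0 FPKM in QC4, QC5 and QC6, which puts the PCdel mean at 105.9% of the WT mean. *Rab28* was at 12.04, 11.7 and 20.99 FPKM in QC3, QC8 and QC10, against 11.5, 11.6 and 11 FPKM in QC4, QC5 and QC6. Most of the *Rab28* difference thus lay in QC10, and without that library its log2 fold change was 0.05. *Rab5b* had group means of 24.5 and 21.8 FPKM.

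The Rabs of regulated secretion were the group asked about in a setting of PC loss. Of their 8 genes, 5 had a mean of at least 1 FPKM, and 0 of the 5 had an unadjusted limma p under 0.05 or groups that stood apart, beside 3.38% and 7.54% of all genes tested. *Rab3d* (chromosome 9, 21907491 to 21918192), known from the granules of exocrine cells, was the most abundant, at 32.1, 17.9 and 12.9 FPKM in QC3, QC8 and QC10, against 32.3, 27.0 and 19.5 FPKM in QC4, QC5 and QC6. QC3 was level with the highest WT library while QC8 and QC10 were below all 3 WT libraries. Its log2 fold change was -0.38, with a 95% interval of -1.18 to 0.42. With each library left out in turn this value ran from -0.72 (without QC3) to -0.10 (without QC10), so single libraries decided it. Without QC3 its limma p was under 0.05 before adjustment, and the adjusted p was 1.0. On the coverage scale the same order held, with 20.7, 10.3 and 5.83 in QC3, QC8 and QC10 and 21.3, 18.3 and 13.0 in QC4, QC5 and QC6. The log2 fold change there was -0.61, against -0.38 in FPKM. The *Rab3d* ratio of coverage to FPKM was lower in all 3 PCdel libraries than in any WT library, a difference of -0.26 on the log2 scale. *Rab29* also had a ratio with the groups apart, at -0.03, as did *Rab43*. How many of all genes have such groups at differences this small was not counted. The part of PC loss in the *Rab3d* values was not tested.

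*Rab27b* (chromosome 18), which docks granules at the membrane, was at 12.9, 19.1 and 14.9 FPKM in QC3, QC8 and QC10, against 16.2, 14.8 and 10.2 FPKM in QC4, QC5 and QC6. *Rab27a* (chromosome 9), its partner in the same step, was at 10.5, 10.3 and 8.80 FPKM in QC3, QC8 and QC10, against 9.71, 10.3 and 9.13 FPKM in QC4, QC5 and QC6. In both genes the groups overlapped, with log2 fold changes of 0.18 (95% interval -0.31 to 0.68) and 0.02 (-0.24 to 0.27). The value of *Rab27b* rested on single libraries, since it came to 0.0 without QC6 and 0.04 without QC8, and on the coverage scale it was -0.03. *Rab3a*, best known from synaptic vesicles, had means of 3.34 and 3.32 FPKM in PCdel and WT adenomas, and *Rab37*, known from mast cell granules, of 1.61 and 1.57 FPKM. *Rab3b*, *Rab3c* and *Rab26* were under 1 FPKM on average and were not tested, and *Rab26* did not exceed 0.262 FPKM in any library. The groups of *Rab3b* stood apart, with means of 0.404 and 0.155 FPKM in PCdel and WT adenomas. Groups were apart in 6.70% of all genes with means above 0 and under 1 FPKM. The 8 genes together were at 61.0, 53.0 and 42.5 FPKM in QC3, QC8 and QC10, against 62.5, 57.4 and 45.7 FPKM in QC4, QC5 and QC6. The ranges of these sums overlapped, and the PCdel mean was 94.5% of the WT mean. The log2 difference of the sums was -0.08 and changed sign with the libraries included, from -0.21 (without QC3 or without QC6) to 0.01 without QC4 and 0.06 without QC10.

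**Figure D4:**
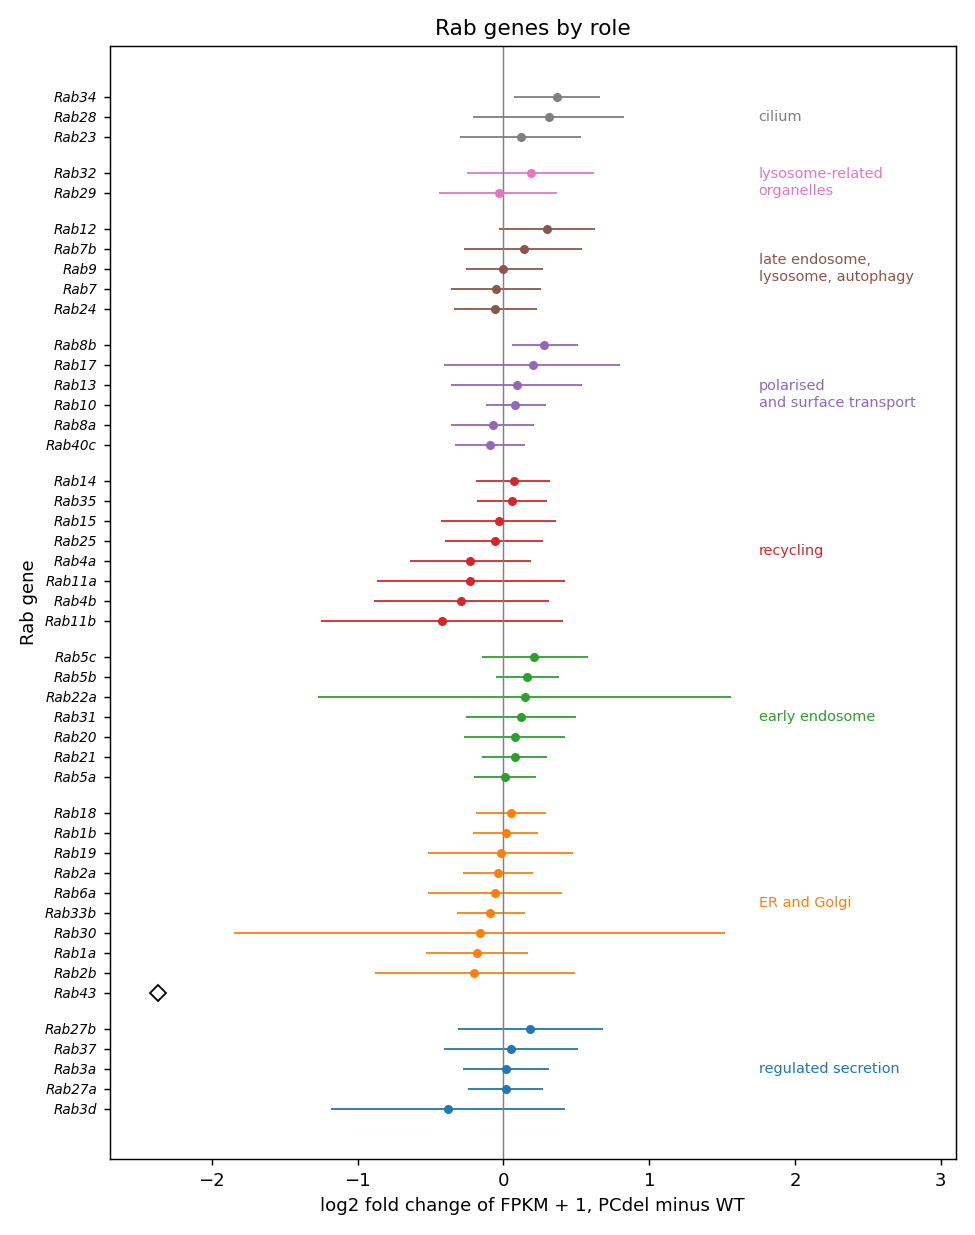
Log2 fold change of FPKM + 1 (PCdel minus WT, horizontal axis) of the 46 Rab genes that averaged at least 1 FPKM, grouped by role. Circles and lines give the limma estimate and its 95% interval for 45 genes, and the open diamond marks *Rab43* (-2.37), given without an interval because it was chosen from this contrast; the intervals of *Rab8b* and *Rab34* lie above 0 and all others include it.

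Grouped by role, the remaining members showed no list in which a gene passed the adjusted threshold. Of the 9 tested ER and Golgi genes besides *Rab43*, 0 had an unadjusted limma p under 0.05, and the median log2 fold change was -0.06. The summed FPKM of the ER and Golgi genes was lower in all 3 PCdel libraries (457, 424 and 410.1 in QC3, QC8 and QC10 against 481, 471 and 486 in QC4, QC5 and QC6). That the groups stood apart rested on *Rab43*. The other 13 genes summed to 452, 420 and 404 FPKM against 452, 444 and 449.6 FPKM in the same order, with groups that overlapped and means of 425 and 448 FPKM. The sum of the 3 cilium genes was the other one with groups apart, and it was higher in PCdel adenomas, at 18.1, 17.4 and 27.0 FPKM in QC3, QC8 and QC10 against 15.5, 16.9 and 15.4 FPKM in QC4, QC5 and QC6. Most of this difference lay in QC10, and without that library the PCdel mean fell from 20.8 to 17.8 FPKM, against 15.9 FPKM in WT adenomas. On the coverage scale the sum was 6.06, 5.96 and 9.26 in the PCdel libraries against 5.49, 5.72 and 5.70 in the WT libraries. For the 7 early endosome genes, led by *Rab5c*, the median log2 fold change was 0.12, and for the 8 recycling genes, led by *Rab25*, it was -0.15. The 5 genes of late endosomes, lysosomes and autophagy, led by *Rab7*, had a median of 0.0. The polarised transport list, led by *Rab10*, had 1 of 6 genes with an unadjusted limma p under 0.05 (*Rab8b*), and the 3 cilium genes, led by *Rab28*, had 1 (*Rab34*), both higher, beside 2.70% of all genes tested that were higher at this level. The 2 tested genes of lysosome-related organelles were *Rab32*, with means of 10.6 and 9.21 FPKM in PCdel and WT adenomas, and *Rab29*, with 8.38 and 8.74 FPKM.

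Members differed widely in how even they were across the 6 libraries. The coefficient of variation (CV) of FPKM over the 6 libraries had a median of 14.7% among the 46 genes, and 15 genes were under 10%. *Rab5a*, the core Rab of early endosomes, was the most even, at 29.8, 27.7 and 28.6 FPKM in QC3, QC8 and QC10, against 28.8, 29.1 and 27.6 FPKM in QC4, QC5 and QC6, a CV of 3.01%. At the other end, 3 of the 46 genes held a library at least 2.5-fold from both others of its genotype, beside 4.85% of all genes tested. *Rab22a*, of early and recycling endosomes, was at 3.59, 11.4 and 11.1 FPKM in QC3, QC8 and QC10, against 10.98, 2.52 and 11.1 FPKM in QC4, QC5 and QC6. It thus had a low library in each genotype and the same high level in the other 4. *Rab30*, a Golgi Rab, was at 21.2 FPKM in QC6 and between 2.09 and 6.26 FPKM in the other 5 libraries. *Rab2b*, a Golgi Rab and the relative of *Rab2a*, was at 0.25 FPKM in QC10 and between 1.27 and 1.66 FPKM elsewhere.

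Read coverage was then set beside FPKM for the uneven genes. *Rab22a* stepped on both scales, with coverage per gigabase of 2.49 in QC3 and 2.32 in QC5 and between 10.7 and 10.9 in the other 4 libraries. *Rab30* was also higher in QC6 on both, with a coverage of 0.705 there and between 0.125 and 0.210 elsewhere. The coverage of *Rab30* was between 0.0332 and 0.0596 of its FPKM. In 4 of the 6 libraries the mean length this gives was more than 2% below that of its shortest annotated transcript (320.2 bases at the lowest, against 436). Of 32 tested Rab genes whose version matched the annotation, *Rab6a* and *Rab13* also came out below their shortest transcript by more than 2%, in all 6 libraries, so the ratio is not read as a length in these 3 genes. *Rab11b*, a recycling Rab close to *Rab11a*, behaved otherwise. Its FPKM was 12.2, 13.0 and 29.1 in QC3, QC8 and QC10, beside 17.4, 29.2 and 22.9 in QC4, QC5 and QC6, a CV of 36.9%. Its coverage had a CV of 11.4%, from 7.58 to 10.1, so that most of its spread in FPKM was not present in the depth of reads over the gene. The opposite held for *Rab33b*, a Golgi Rab that takes part in autophagy, with a CV of 6.57% in FPKM and 39.6% in coverage.

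**Figure D5:**
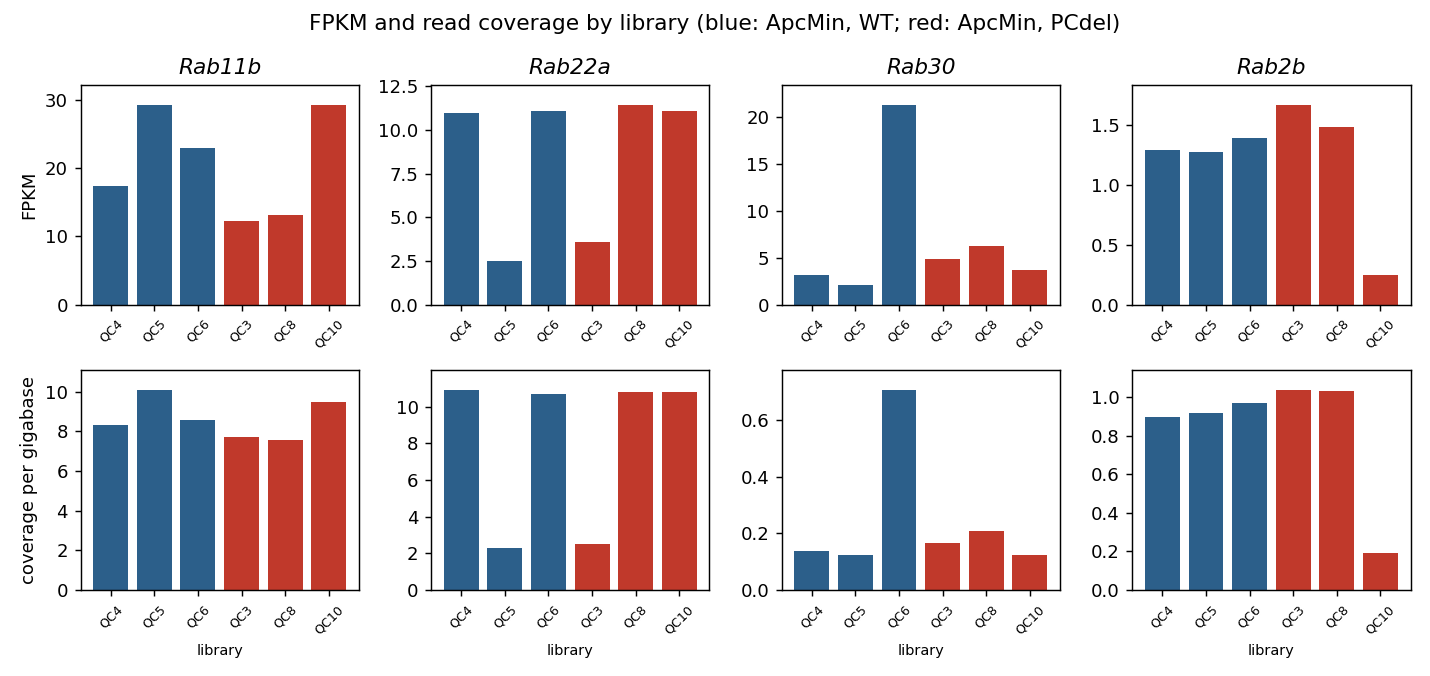
FPKM (upper row) and read coverage per aligned gigabase (lower row) of *Rab11b*, *Rab22a*, *Rab30* and *Rab2b* in each library, WT in blue and PCdel in red, 1 bar per library. The steps of *Rab22a* in QC5 and QC3, of *Rab30* in QC6 and of *Rab2b* in QC10 appear on both scales, and the spread of *Rab11b* is 36.9% in FPKM and 11.4% in coverage.

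Sequence shared with other genes bears on some members besides *Rab43*. Of the 59 genes, 13 shared over 10% of their 31-base stretches with another annotated gene, and 4 over 50%. These 4 were *Rab43*, *Rab4b* (62.7%, mostly with *Gm21983*), *Rab2b* (59.6%, mostly with *Gm43766*) and *Rab24* (54.4%, with the neighbouring *Prelid1*). The levels of these genes are uncertain to that extent, including the low value of *Rab2b* in QC10.

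The machinery that acts on Rab proteins was read from a list of 108 genes, of which 101 were tested. Of these, 2 had an unadjusted limma p under 0.05, both higher in PCdel adenomas (1.98%, beside 3.38% of all genes tested), and 0 had an adjusted p under 0.05. The groups did not overlap in 8 of the 101 (7.92%), all higher, beside 7.54% of all genes tested (6.00% higher). Both of the 2 were GTPase activating proteins. *Tbc1d16* had means of 2.63 ± 0.336 and 1.92 ± 0.173 FPKM (SD, n = 3 each; log2 fold change 0.31) in PCdel and WT adenomas. *Rabgap1* had means of 11.4 ± 1.55 and 9.02 ± 0.664 FPKM (SD, n = 3 each; log2 fold change 0.30). Neither was under an unadjusted limma p of 0.05 after quantile normalization or without QC10, QC5 or QC6, and on the coverage scale *Tbc1d16* was not either. *Tbc1d16* also lost it without QC3, and *Rabgap1* without QC8, after median centring and without the trend of variance on mean.

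Among the genes that prenylate Rab proteins or lift them off membranes, *Gdi2*, the widespread GDP dissociation inhibitor, was the most abundant. It was at 159, 156 and 173 FPKM in QC3, QC8 and QC10, against 166, 165 and 166 FPKM in QC4, QC5 and QC6. Its level was as high as that of *Rab1a*, the most abundant Rab gene. Of the geranylgeranyl transferase subunits, *Rabggtb* had means of 32.3 and 33.0 FPKM in PCdel and WT adenomas and *Rabggta* of 11.7 and 11.4 FPKM. *Chm*, the escort protein that presents Rab proteins to this enzyme, had means of 5.60 and 4.96 FPKM with groups apart, and its relative *Chml* had 2.19 and 2.29 FPKM. *Rabac1*, a membrane receptor of prenylated Rab proteins, had 37.1 and 36.3 FPKM, and the guanine nucleotide release factor *Rabif* 14.4 and 14.1 FPKM. None of these genes had an unadjusted limma p under 0.05. The most abundant genes of the remaining roles were *Ccz1* among exchange factors (which acts on *Rab7*), *Tbc1d20* among GTPase activating proteins (which acts on *Rab1*), *Mlph* among effectors of secretion (which binds *Rab27a*) and *Myo5b*, the motor that binds *Rab11a* and *Rab25*, among effectors of endosomes and recycling. *Myo5b* had means of 65.8 ± 11.4 and 67.9 ± 14.9 FPKM (SD, n = 3 each), and *Mlph* of 16.9 ± 2.08 and 15.9 ± 3.31 FPKM.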

How the data were processed

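RNA of small intestinal adenomas was made into libraries with the TruSeq RNA kit, and the methods name a HiSeq2500 sequencer, alignment in CLC Genomics Workbench 7 and a normalization in MatLab, without settings. The program and annotation behind the deposited tables are not given in the sources used here; gene positions match GRCm38. The authors deposited FPKM per gene, scaled for length and library size, TPM, scaled by the authors to a sum of 1000000, and the mean read coverage, which is not scaled and was divided here by the gigabases of each library. Entries of 1 gene were summed. Of the 59 Rab gene identifiers, 42 matched GENCODE M21 with the same version and all 59 without it.

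The genotypes were compared with limma 3.58.1 in R 4.3.3 (lmFit, then eBayes with a trend of variance on mean) after transformation to log2(FPKM + 1), a scale that understates changes of low genes. Genes averaging under 1 FPKM were left out, p-values were Benjamini-Hochberg adjusted over the remaining 14240 genes, and the threshold was 0.05. A two-sided exact permutation of the 6 libraries was added for single genes. On simulated data for this comparison, limma recovered 91% of 200 genes (among 14240) given a log2 change of 2, 58.5% given a change of 1 and 0% given a change of 0.5. The 200 genes were changed together, with independent normal noise, and were drawn from genes with a mean log2(FPKM + 1) above 2. Recovery of a gene that changes alone, or of a lower gene, can be smaller and was not simulated. Coding sequences were aligned with Biopython 1.88.

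The members, roles and gene lists were chosen with earlier results of these data known. Named genes were *Rab43* with its overlapping and nearest genes, the secretory Rabs, the 10 most abundant members, tested members with an unadjusted p under 0.05 or groups apart, the most abundant member of each role, and of the Rab machinery the prenylation genes, those with an unadjusted p under 0.05 and the most abundant of each role, apart from a gene that is not reported here. Genes named for their spread, shared sequence or wide intervals were chosen after the values were seen. So were the coverage scale and the sum of PC markers without *Ang4*. The rule's nearest proteins were replaced by nearest coding sequences. Alternatives were TPM, quantile normalization, median centring, array quality weights, eBayes without the trend, a pseudocount of 0.1, all genes above 0, genes averaging at least 5 FPKM, and each library left out in turn.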

Additional observations from a re-analysis of the deposited data

How the results depend on the processing

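Besides *Rab43*, 0 Rab genes had an adjusted limma p under 0.05 in any of the 15 alternatives. The difference of *Rab43* was -3.00 on the coverage scale (an alternative chosen after seeing the data), -2.16 with *Gm45140* added, and from -2.46 to -2.25 with each library left out. The number of all genes past the adjusted threshold was 2, with median centring and unfiltered 1, and 1 to 5 with each library left out. Genes with an unadjusted p under 0.05 numbered 481, and 1270 with array weights, 976 unfiltered, 260 at an average of 5 FPKM or more, and 353 to 824 with each library left out (824 without QC6). The share of these that were higher was 79.8%, and 88.7% with TPM. It was 63.5% with array weights, 61.4% after median centring, 58.9% after quantile normalization and 59.3% without QC6.

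Higher Rab genes with an unadjusted p under 0.05 numbered 2, and 4 unfiltered, 1 at an average of 5 FPKM or more, 1 with quantile normalization, 1 with median centring and 0 to 4 with each library left out (0 without QC3 and without QC4, 1 without QC8, 4 without QC6). Lower ones numbered 0, and 0 to 2 with each library left out (1 without QC3, 2 without QC10). Among secretory Rabs the higher count was 0 and became 1 (*Rab3b*) unfiltered, and the lower count was 0 to 1 with each library left out (*Rab3d*, without QC3). Rab machinery genes that were higher numbered 2, and 1 at an average of 5 FPKM or more, 0 with quantile normalization, 1 with median centring, 1 without the trend, 0 on the coverage scale and 0 to 2 with each library left out (0 without QC5 and without QC6). The lower count was 0 to 1 (1 without QC8). The cause was not tested. No paired analysis was possible because the 2 genotypes share no replicate numbers. With 3 libraries per genotype, differences of 0.5 on the log2 scale did not pass the adjusted threshold in data simulated from these libraries.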

Other observations

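Among the 13 Rab genes with a mean under 1 FPKM, the groups did not overlap in 2, both higher in PCdel adenomas, beside 6.70% of the 12968 genes with means in that range and above 0 (4.54% higher). *Rab3b*, a secretory Rab of endocrine and other epithelial cells, was at 0.289, 0.481 and 0.441 FPKM in QC3, QC8 and QC10, against 0.0795, 0.254 and 0.132 FPKM in QC4, QC5 and QC6. *Rab38*, which acts in the making of lysosome-related organelles, was at 0.813, 0.623 and 0.730 FPKM in QC3, QC8 and QC10, against 0.431, 0.568 and 0.488 FPKM in QC4, QC5 and QC6. Neither gene was part of the fit with the filter on low values. The remaining 11, which include *Rab6b*, *Rab44*, *Rab39b* and *Rab40b*, had groups that overlapped.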
